A study of Homo sapiens with 6 samples.

Results

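The anaphase-promoting complex is the ubiquitin ligase that ends mitosis, and 10 genes of it and its partners were followed in SKOV3 cells, a human ovarian cancer cell line in long use that carries extra copies of ERBB2. The members were taken by gene symbol from the deposited table of 61552 genes. They are 5 core subunits (CDC16, CDC23, CDC27, ANAPC5 and ANAPC7) and 5 partners: the E2 enzymes UBE2C and UBE2S, the coactivator FZR1, the inhibitor FBXO5 and the securin gene PTTG1. All 10 were present once each, and all passed the filter on low counts, which left 17363 genes. Both groups were SKOV3 cultures kept for 48 h, with the vehicle DMSO in 3 libraries (DMSO 10, 11 and 12) or with fenbendazole at 1 µM in 3 libraries (fenbendazole 7, 8 and 9). Fenbendazole is a benzimidazole anthelmintic that binds tubulin. Polyadenylated RNA was sequenced.

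The complex attaches ubiquitin to proteins that must be destroyed for sister chromatids to part and for the cell to leave mitosis. UBE2C places the first ubiquitins and UBE2S lengthens the chain. The coactivators CDC20, in mitosis, and FZR1, from late mitosis through G1, bring in the substrates. FBXO5, also called EMI1, blocks the complex through S phase and G2, and securin, the PTTG1 product, holds the protease separase inactive until the complex has it degraded. In dividing cells the transcripts of the E2 enzymes, securin and CDC20 are known to rise toward mitosis, while those of the core subunits are known to vary less.

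The libraries held 13170775 to 22128930 counts, and 3 counts correspond to 0.136 to 0.228 CPM, counts scaled by the size of the library. No 2 replicates matched within sampling noise (chi-square per degree of freedom from 5.34). Nothing in the labels says that replicates came from separate cultures, so the p-values reflect a spread between libraries that may be technical. One control library, DMSO 11, stood apart: its mean Spearman correlation with the other 5 libraries was 0.940, against 0.968 to 0.973 for each of those. All 7 markers listed for SKOV3 were expressed. Their summed FPKM (fragments scaled by transcript length and library size) was 2048 to 4123 in DMSO and 1225 to 1392 with fenbendazole. Most of the sum was ERBB2, at 1618 to 3408 FPKM in DMSO and 836 to 934 with fenbendazole. ERBB2 and MUC1 fell (edgeR adjusted p = 0.0422 and 0.0299), and the other 5 markers did not pass with all 6 libraries. Of 8 markers of leukocytes, endothelium and fibroblasts, 4 passed the filter. The 4 that passed were CD68 (5.93 to 9.90 FPKM), PECAM1 (1.31 to 2.40), COL1A1 (5.34 to 13.05) and LUM (1.77 to 4.90). All 8 summed to 17.7 to 26.8 FPKM in DMSO and 19.7 to 20.2 with fenbendazole. CD3E was at 0 in all libraries, and PTPRC, VWF and DCN reached at most 0.0739, 0.0329 and 0.0781 FPKM.

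Of the 10 members 3 rose with fenbendazole and 0 fell. Securin (PTTG1) rose 5.75-fold, the E2 enzyme UBE2C 2.45-fold and the inhibitor FBXO5 2.37-fold. Each was higher in every treated library than in every control library, as were 6 of the 10 members and 17.0% of all tested genes. None of the 5 core subunits passed the threshold, a Benjamini-Hochberg adjusted p of 0.05 in edgeR's quasi-likelihood test over all 17363 genes. Over all tested genes, 3.11% rose and 0.921% fell by the same rule. DESeq2 called 4 members, all higher (PTTG1, UBE2C, FBXO5 and ANAPC7), where it called 6.65% of all genes higher and 4.65% lower. At an unadjusted p under 0.05 in edgeR 4 members passed, all higher, beside 21.3% of all genes in either direction and 10.8% upward. Without DMSO 11, 5 members rose (UBE2S and ANAPC7 in addition) and 0 fell, where 13.1% of all genes rose and 9.23% fell. The median log2 fold change was 1.24 over the 5 partners and 0.35 over the 5 core subunits, beside -0.06 over all genes. Without DMSO 11 these medians were 1.56, 0.18 and -0.0073, and with offsets for GC content and length 0.96, 0.11 and -0.018. In RNA from whole cultures, a higher level per cell and a larger share of cells that hold the transcript cannot be told apart.

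The 5 core subunits gave 0 calls in edgeR, 1 with an unadjusted p under 0.05 (ANAPC7), 0 calls in limma-voom and 1 in DESeq2, again ANAPC7. Of all 17363 genes edgeR called 700, limma-voom 704 and DESeq2 1963, and 21.3% had an unadjusted p under 0.05 in edgeR. At such shares, 0 or 1 call among 5 genes does not set the core subunits apart. ANAPC5, a scaffold subunit, was at 115.6, 118.3 and 125.5 CPM in DMSO 10, 11 and 12 and at 129.8, 132.6 and 119.8 CPM in fenbendazole 7, 8 and 9. Its groups overlapped, and the log2 fold change was 0.09, with a 95% interval from -0.18 to 0.36. CDC16, one of the subunits with tetratricopeptide repeats that build the arch of the complex, was at 65.3, 58.8 and 75.1 CPM in DMSO and at 73.5, 71.7 and 69.96 CPM with fenbendazole. Its treated values lay inside the range of the controls, and the interval of the log2 fold change ran from -0.20 to 0.43.

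CDC23, CDC27 and ANAPC7, also repeat subunits, were higher in all 3 treated libraries than in any control, a pattern that 17.0% of all tested genes showed upward and 15.5% downward. CDC27, to which the coactivators dock, had the largest CPM of the members, with 297.7, 187.9 and 307.2 in DMSO and 333.5, 332.3 and 353.5 with fenbendazole. The groups did not overlap, though they lay close, and DMSO 11 was low. The log2 fold change of CDC27 was 0.36 ± 0.193 (SE, adjusted p = 0.318), with an interval from -0.09 to 0.81, and it was 0.18 (adjusted p = 0.0557) without DMSO 11. CDC23 was at 59.6, 46.4 and 62.1 CPM in DMSO and at 66.5, 71.1 and 76.3 CPM with fenbendazole, and here too DMSO 11 was the lowest. Its log2 fold change was 0.35 ± 0.154 (adjusted p = 0.245), and its span shares 74 bases at one end with the kinesin gene KIF20A on the other strand, which rose by 2.90 on the log2 scale. Whether libraries kept strand is not given in the sources used here, so reads from that overlap cannot be assigned with certainty.

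ANAPC7, a subunit found in the vertebrate complex, had the largest log2 fold change of the 5, at 0.58 ± 0.132 (adjusted p = 0.057), a 1.499-fold difference. It was at 57.8, 52.3 and 48.0 CPM in DMSO 10, 11 and 12 and at 75.9, 76.9 and 84.3 CPM in fenbendazole 7, 8 and 9. The treated libraries were all higher, the lowest by 1.31 times the highest control, and DMSO 11 lay between the other controls. ANAPC7 passed the threshold in 1 of 6 fits that left out a library and in 4 of 12 other settings. It passed without DMSO 11 (0.58, adjusted p = 0.000777), with DESeq2 (0.00175) and with offsets for GC content and length (0.0012). It also passed with library quality weights (0.00118) and with a filter of 1 CPM (0.0402), under which 651 of 15046 genes rose and 207 fell. It did not pass with limma-voom (0.0603), without the filter on low counts (0.113) or without any other library (0.105 to 0.276). A fit that leaves out the control lying farthest from the rest may understate the spread between controls, and its p-values with it.

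**Figure D1:**
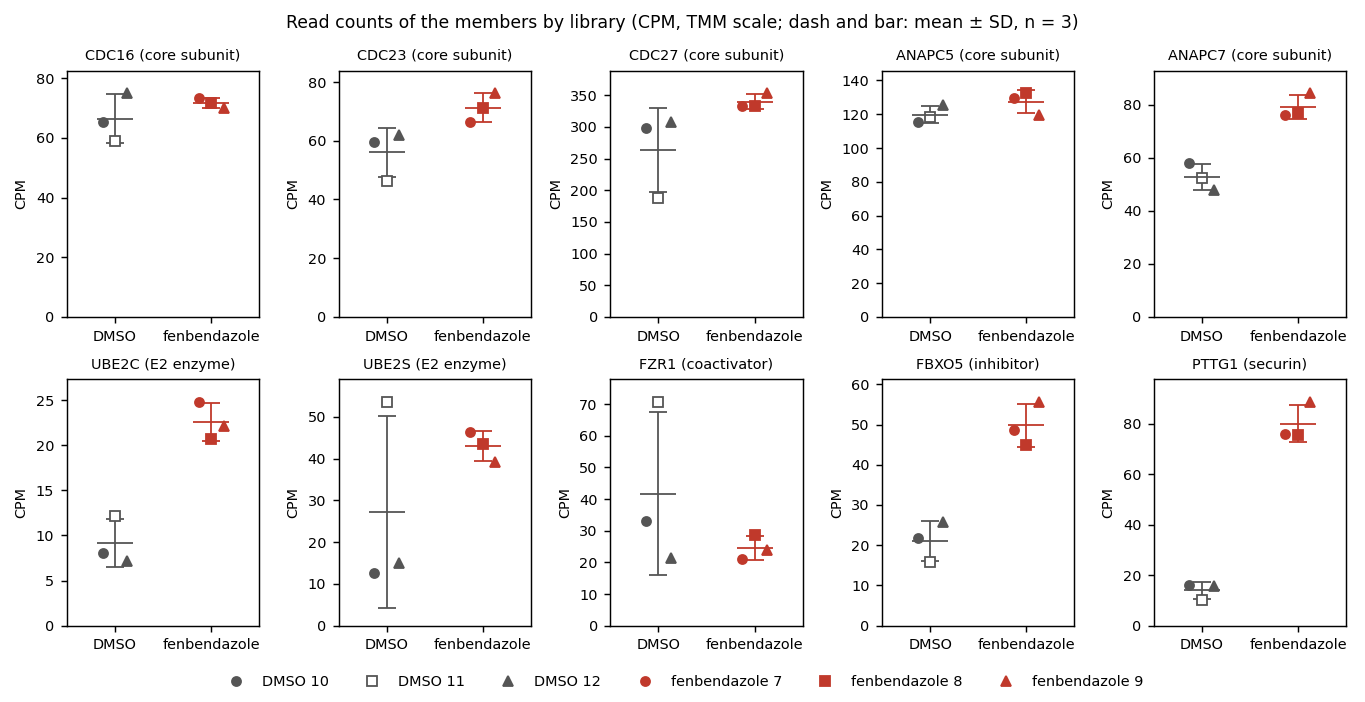
Level of each member in each library in CPM on the TMM scale (y axes start at 0; dash and bar: mean ± SD, n = 3 per group; open square: DMSO 11). PTTG1, UBE2C and FBXO5 show treated libraries well above all controls, UBE2S and FZR1 show DMSO 11 far above the other controls, and CDC16 and ANAPC5 show groups that overlap.

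The E2 enzymes differed in how they depended on DMSO 11. UBE2C (ENSG00000175063, chromosome 20, 45812576 to 45816957, plus strand, GRCh38) was at 8.08, 12.2 and 7.22 CPM in DMSO 10, 11 and 12. With fenbendazole it was at 24.8, 20.7 and 22.1 CPM in libraries 7, 8 and 9. The groups did not overlap, although DMSO 11 was the highest control, and the lowest treated library was 1.698 times that control. The log2 fold change of UBE2C was 1.29 ± 0.240 (SE, adjusted p = 0.0288) and 1.56 ± 0.160 without DMSO 11. Its call was lost without DMSO 10 (adjusted p = 0.115), DMSO 12 (0.0662) and fenbendazole 7, 8 or 9 (0.167, 0.119 and 0.139). Those fits had fewer libraries, and the cause of the lost calls was not tested.

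UBE2S (ENSG00000108106, chromosome 19, 55399745 to 55407788, minus strand) was at 12.7, 53.6 and 15.1 CPM in DMSO 10, 11 and 12. It was at 46.3, 43.4 and 39.2 CPM in the fenbendazole libraries. DMSO 11 was 3.85 times the mean of the other controls and above all treated libraries, so the groups overlapped. The log2 fold change was 0.66 ± 0.514 (adjusted p = 0.488), with an interval from -0.54 to 1.86. Without DMSO 11 it was 1.64 ± 0.134 (adjusted p = 1.00e-06), a 3.11-fold difference. With library quality weights in limma-voom, which kept DMSO 11 at a weight of 0.074, it was 1.65 (adjusted p = 5.29e-06). Whether that library was kept, and at what weight, thus decided the call for UBE2S. Its span overlaps 3506 bases of the ribosomal protein gene RPL28 on the other strand. RPL28 was at 252.6 CPM in DMSO 11 and at 158.9 to 185.4 CPM in the other 5 libraries, and its part in the UBE2S counts was not tested.

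FZR1 was the 1 member with a negative log2 fold change. It was at 32.9, 70.7 and 21.4 CPM in DMSO and at 21.2, 28.6 and 23.8 CPM with fenbendazole. DMSO 11 was again the highest library, at 2.60 times the mean of the other controls, and the groups overlapped. The log2 fold change was -0.77 ± 0.408 (adjusted p = 0.317), with an interval from -1.72 to 0.18, and it was -0.15 ± 0.189 without DMSO 11. The gene MFSD12, which overlaps 74 bases at the end of FZR1 on the other strand, was at 89.6 CPM in DMSO 11 and at 30.7 to 40.3 CPM in the other libraries.

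The inhibitor gene FBXO5 (ENSG00000112029, chromosome 6, 152970519 to 152983579, minus strand) was at 21.7, 15.8 and 25.7 CPM in DMSO 10, 11 and 12. It stood at 48.7, 45.03 and 55.7 CPM in fenbendazole 7, 8 and 9. All treated libraries were higher, the lowest by 1.75 times the highest control. The log2 fold change was 1.24 ± 0.211 (SE, adjusted p = 0.0208), 1.081 ± 0.127 without DMSO 11 and 0.88 with GC and length offsets (adjusted p = 0.000526). FBXO5 did not pass when DMSO 10 was left out (adjusted p = 0.0871), nor when fenbendazole 7 (0.111), 8 (0.0849) or 9 (0.130) was.

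PTTG1 (ENSG00000164611, chromosome 5, 160421855 to 160428739, plus strand) was at 15.99, 10.005 and 15.92 CPM in DMSO 10, 11 and 12. With fenbendazole it was at 75.8, 75.8 and 88.7 CPM in libraries 7, 8 and 9. The lowest treated library was 4.74 times the highest control. The log2 fold change of PTTG1 was 2.52 ± 0.218 (SE, adjusted p = 0.00144), rank 57 by p among the 17363 genes tested. PTTG1 passed the threshold without each of the 6 libraries in turn, with a log2 fold change from 2.34 to 2.64 and an adjusted p of at most 0.017. It was the 1 member to do so.

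PTTG1, UBE2C, UBE2S and CDC27 have related copies elsewhere in the genome that could share reads, and the handling of reads with several matches is not given in the sources used here. PTTG2 and PTTG3P had at most 3 and 1 counts in a library, beside 214 to 1507 for PTTG1. The pseudogenes UBE2CP1 to UBE2CP4 had at most 16 counts in a library, the UBE2S pseudogenes at most 11 and the CDC27 pseudogenes at most 11.

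**Figure D2:**
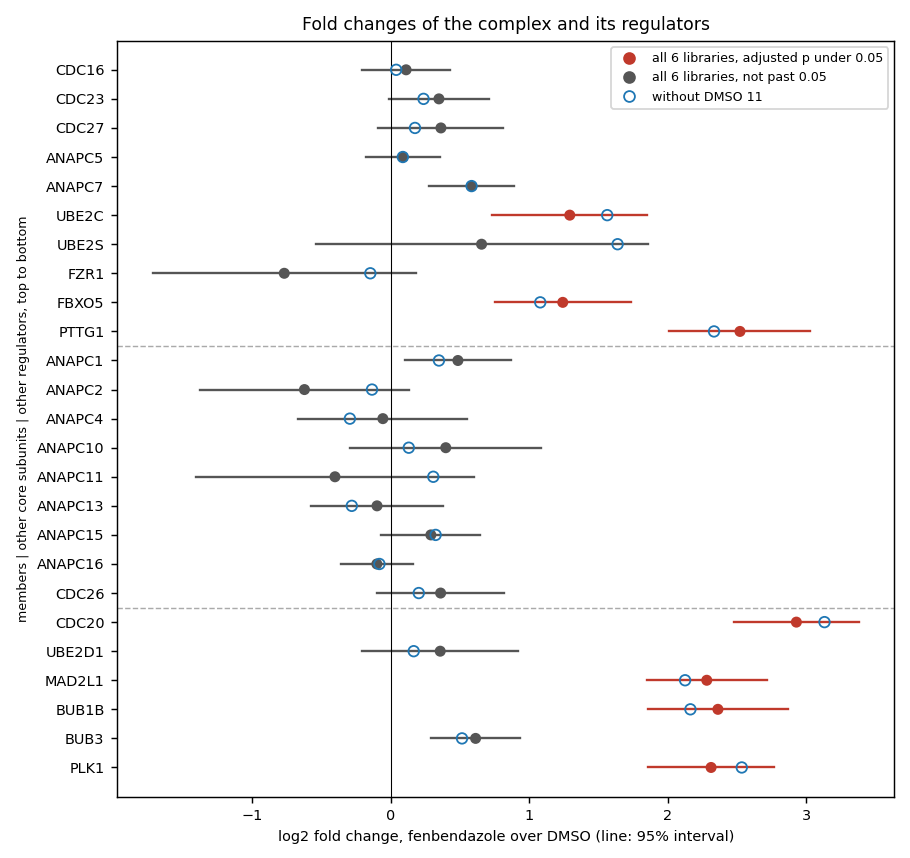
Log2 fold change of each member, the other core subunits and other regulators (x axis; line: 95% interval; filled points: edgeR with all 6 libraries, red where the adjusted p is under 0.05; open circles: without DMSO 11). UBE2C, FBXO5, PTTG1, CDC20, MAD2L1, BUB1B and PLK1 are red, all core subunits are grey, and UBE2S, FZR1 and ANAPC11 move most when DMSO 11 is left out.

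Sequences around RefSeq starts of the members were read for motifs known from cell cycle promoters. These motifs were the cell cycle homology region (CHR, TTTGAA or TTCGAA), the CCAAT box (CCAAT) and an E2F site (TTTGGCGC, TTTCCCGC, TTTGCCGC or TTTCGCGC). They were searched on both strands in RefSeq windows (GRCh38.p14) from 250 bases before to 50 after each start. RefSeq windows matched 9 of the 10 members, all but UBE2C, and some had more than 1. Of 34943 windows in all, 16.4% held a CHR, 34.6% a CCAAT box and 3.3% an E2F site. The stretches below are shown because PTTG1 and FBXO5 rose and ANAPC5 had the log2 fold change nearest 0. Each is the part of the 250 bases before the start that lies outside exons of the gene in GENCODE release 29, read 5′ to 3′ on the strand of the gene. Capitals mark matches on either strand, and CCAATTGG holds a match on each strand. For FBXO5 the window at its downstream start is shown, which held matches, and not that at its upstream start, which held none. The FBXO5 and ANAPC5 stretches lie inside the deposited spans of these genes (152970519 to 152983579 and 121308245 to 121399896).
PTTG1, chr5:160421605-160421821, plus strand: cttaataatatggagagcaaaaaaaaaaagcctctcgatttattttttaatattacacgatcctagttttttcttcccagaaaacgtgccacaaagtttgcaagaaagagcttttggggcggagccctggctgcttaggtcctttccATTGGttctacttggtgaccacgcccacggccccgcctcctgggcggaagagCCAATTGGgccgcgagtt
FBXO5, chr6:152983042-152983233, minus strand: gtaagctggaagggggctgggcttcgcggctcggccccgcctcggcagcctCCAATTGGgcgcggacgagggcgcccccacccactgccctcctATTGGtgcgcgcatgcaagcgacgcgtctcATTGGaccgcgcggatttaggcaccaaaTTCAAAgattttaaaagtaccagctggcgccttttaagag
ANAPC5, chr12:121352463-121352661, minus strand: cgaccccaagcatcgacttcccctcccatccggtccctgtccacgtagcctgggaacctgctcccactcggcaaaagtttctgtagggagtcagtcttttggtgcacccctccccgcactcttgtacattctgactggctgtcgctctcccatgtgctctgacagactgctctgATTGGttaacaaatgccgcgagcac

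Each of the 2 overlapping PTTG1 windows held the same 3 CCAAT matches, of which 2 overlap each other, and no CHR match. The FBXO5 window at its downstream start held 4 CCAAT matches and 1 CHR match on the strand opposite to the gene, 40 bases before the start. The FBXO5 window at its upstream start held none of the motifs. ANAPC5 had 1 CCAAT match. Windows with 3 or more CCAAT matches made up 3.26% of all windows, and those with both a CHR and a CCAAT match 6.4%. Among the other members, CDC23 also had 3 CCAAT matches and an E2F match, CDC16 had 1 of each, and CDC27 and UBE2S had 1 CCAAT match. ANAPC7 and FZR1 had 1 CHR match each. A CHR match stood in a window of 2 of the other 9 core subunits, 5 of the 7 further regulators that had windows (CDC20, MAD2L1, MAD2L1BP, BUB1B and PLK1) and 9 of 20 substrate genes. These matches describe letters only, and both called and uncalled members held them.

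**Figure D3:**
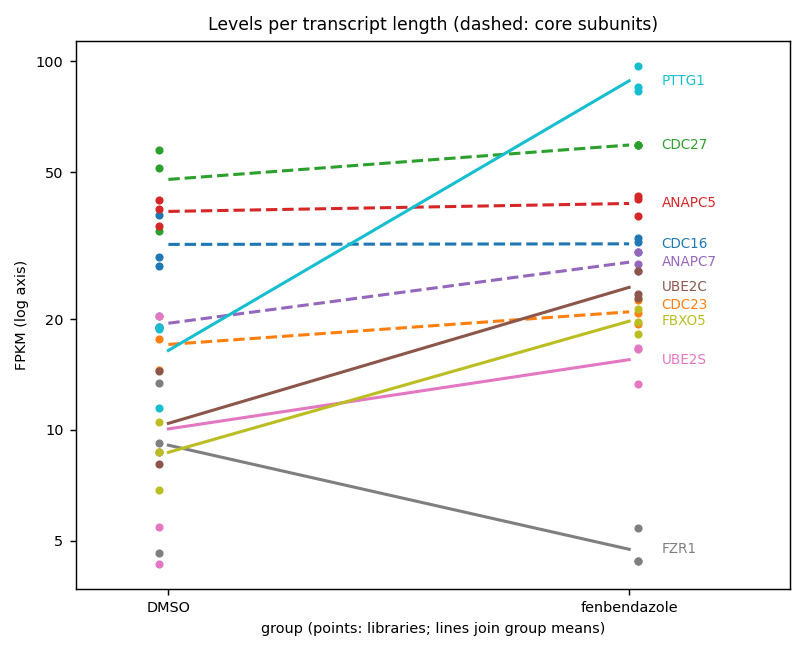
Deposited FPKM of the members (y axis, log scale) in DMSO and with fenbendazole; points are libraries and lines join group means, dashed for core subunits. PTTG1 crosses from the middle of the members to the top, UBE2C reaches the range of ANAPC7 and FBXO5 that of CDC23, and FZR1 ends lowest.

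Per transcript length, in the deposited FPKM, core subunits led in the controls. In DMSO the order of mean levels was CDC27 (47.8 ± 11.9 FPKM, SD, n = 3), ANAPC5 (39.2 ± 3.19), CDC16 (31.9 ± 5.60), ANAPC7 (19.5 ± 0.779), CDC23 (17.1 ± 2.24) and PTTG1 (16.4 ± 4.29). UBE2C, UBE2S, FZR1 and FBXO5 followed at 10.4 ± 3.53, 10.1 ± 8.98, 9.09 ± 4.38 and 8.70 ± 1.82 FPKM. Apart from CDC16 over ANAPC7 and ANAPC7 over CDC23, neighbours in this order had overlapping ranges. With fenbendazole PTTG1 was highest, at 88.6 ± 7.71 FPKM, above CDC27 (59.3 ± 0.141), ANAPC5 (41.2 ± 2.72), CDC16 (32.0 ± 1.38) and ANAPC7 (28.5 ± 1.75). UBE2C (24.4 ± 2.25), CDC23 (20.9 ± 1.595), FBXO5 (19.7 ± 1.57), UBE2S (15.5 ± 1.92) and FZR1 (4.75 ± 0.587) followed. Ranges of neighbours overlapped there for ANAPC7 with UBE2C and for CDC23 with FBXO5.

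Set against core subunits within each library, PTTG1 moved from below CDC27 to above it. The ratio of PTTG1 to CDC27 in FPKM was 0.366, 0.332 and 0.330 in DMSO 10, 11 and 12 and 1.405, 1.434 and 1.642 in fenbendazole 7, 8 and 9. UBE2C to ANAPC5 was 0.244, 0.345 and 0.202 in DMSO and 0.637, 0.529 and 0.614 with fenbendazole. FBXO5 to ANAPC5 was 0.244, 0.164 and 0.263 in DMSO and 0.465, 0.422 and 0.561 with fenbendazole. None of these 3 ratios overlapped between groups, whereas UBE2C to CDC27 did, at 0.419 in DMSO 11 and 0.384 in fenbendazole 8. PTTG1, UBE2C and FBXO5 already passed the threshold without overlap in CPM, so the separation of these ratios is not independent of those calls. The ratio of the inhibitor FBXO5 to the coactivator FZR1 was 0.942, 0.513 and 2.26 in DMSO and 4.46, 3.35 and 4.84 with fenbendazole. FZR1 was highest in DMSO 11, and its FPKM did not follow its counts: CPM divided by FPKM was 3.59 in DMSO 10 and 5.44 in DMSO 11. As a deviation from the DMSO mean of each gene, the median over the 5 core subunits was 0.10, -0.17 and 0.16 on the log2 CPM scale in DMSO 10, 11 and 12 and 0.26, 0.36 and 0.45 in fenbendazole 7, 8 and 9. Over the 5 partners it was -0.14, 0.45 and -0.31 in DMSO and 1.24, 1.12 and 1.31 with fenbendazole. The treated libraries were above the controls in both sets, and by more in the partners. A ratio shows unequal change of its 2 genes, and these were not tested.

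**Figure D4:**
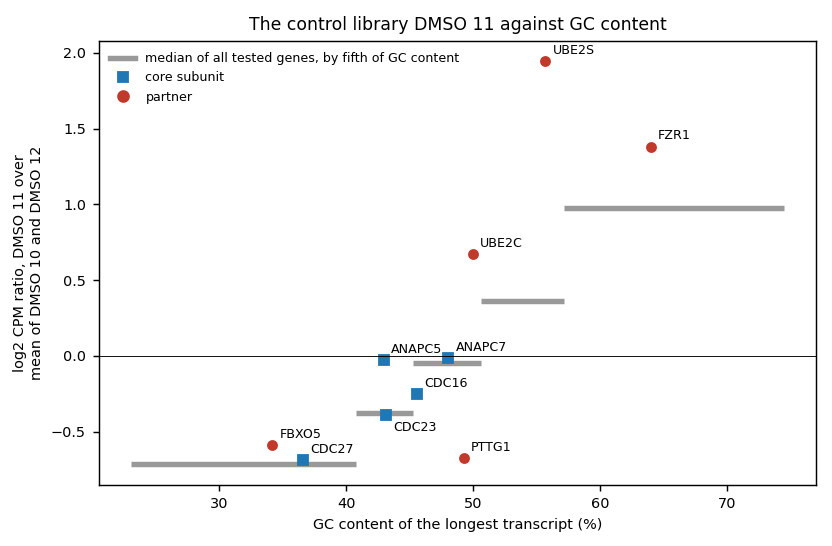
Log2 ratio of CPM in DMSO 11 to the mean of DMSO 10 and DMSO 12 (y axis) against GC content of the longest transcript of each member in percent (x axis); grey bars are medians of all tested genes in 5 equal bins of GC content. The bars climb from -0.72 to 0.97, and UBE2S and FZR1 lie above them while CDC27 and CDC23 lie close to them.

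The place of DMSO 11 among the controls went with GC content. Over tested genes in 5 equal bins of transcript GC content, the median log2 ratio of DMSO 11 to the mean of DMSO 10 and 12 was -0.72, -0.38, -0.05, 0.36 and 0.97, from lowest to highest GC. Among the members, FBXO5 (34.2% GC) and CDC27 (36.6%) were at -0.59 and -0.69. UBE2S (55.7%) and FZR1 (64.0%) were at 1.95 and 1.38, above the medians of their bins. PTTG1 (49.3%) was at -0.67 and UBE2C, close to it in GC content, at 0.67. With offsets for GC content and length, PTTG1 had a log2 fold change of 2.54, UBE2C 1.33, UBE2S 0.96 (adjusted p = 0.183) and FZR1 -0.14, and 4 members rose (ANAPC7 in addition), where 12.6% of all genes rose and 8.45% fell.

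The 9 core subunits outside the members gave 0 calls in edgeR, with a median log2 fold change of -0.06. Over all genes 3.11% rose and 0.921% fell, so 0 calls among 9 genes do not set them apart. ANAPC1, the largest scaffold subunit, was the 1 of the 9 with an unadjusted p under 0.05, beside 21.3% of all genes. DESeq2 and limma-voom gave 0 calls among the 9. ANAPC1 was at 65.3, 46.7 and 65.3 CPM in DMSO and at 81.6, 87.5 and 78.97 CPM with fenbendazole, a log2 fold change of 0.49 ± 0.164 (adjusted p = 0.151). Leaving out DMSO 11 gave 0.35 (adjusted p = 0.00841). The cullin subunit ANAPC2 and the RING subunit ANAPC11, which form the catalytic module, were at -0.62 (adjusted p = 0.307) and -0.40 (0.618). Both were highest in DMSO 11, at 2.18 and 2.89 times the mean of the other controls, and without that library the log2 fold changes were -0.13 and 0.31. The remaining 6 ranged from -0.10 (ANAPC16 and ANAPC13) to 0.40 (ANAPC10), with ANAPC4 at -0.06, ANAPC15 at 0.29 and CDC26 at 0.36.

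Of 11 further regulators 4 rose and 0 fell in edgeR with all libraries, the median log2 fold change being 0.44. Over all tested genes 3.11% rose and 0.921% fell. CDC20, the mitotic coactivator, was at 22.01, 28.8 and 17.9 CPM in DMSO and at 174.3, 182.8 and 168.7 CPM with fenbendazole, a log2 fold change of 2.93 ± 0.194 (adjusted p = 0.000807). Its FPKM was 1.26, 1.20 and 2.01 times that of FZR1 in DMSO and 20.2, 17.3 and 19.0 times with fenbendazole, though the FPKM of FZR1 did not follow its counts. MAD2L1 and BUB1B, checkpoint proteins that hold CDC20 in check, had log2 fold changes of 2.28 ± 0.186 and 2.36 ± 0.217. PLK1, the kinase that marks FBXO5 for destruction, had 2.31 ± 0.196. BUB3, also of the checkpoint, was at 0.61 ± 0.137 (adjusted p = 0.0547) and passed without DMSO 11 (0.52, adjusted p = 0.000122). UBE2D1, another E2 enzyme that can serve the complex, was at 0.36 ± 0.242 (adjusted p = 0.423).

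Of 23 genes for known substrates of the complex other than securin, 22 rose and none fell by edgeR. By the same rule 3.11% of all tested genes rose and 0.921% fell. The list was chosen with earlier results of these data known. The median of the 23 stood at 2.14 on the log2 scale. CCNA2, which encodes cyclin A2, was at 18.1, 14.2 and 19.2 CPM in DMSO and at 105.4, 107.7 and 109.4 CPM with fenbendazole. TPX2, a spindle assembly factor, rose 6.45-fold and AURKA and CCNB1 rose by 2.91 and 2.46 on the log2 scale. SKP2, a ubiquitin ligase subunit, was the 1 that did not pass (log2 fold change 0.34, adjusted p = 0.397). Of these 23, 14 passed without fenbendazole 7, 8 or 9 each time. In those fits 139 of 18211, 144 of 18291 and 141 of 17774 tested genes rose, and 8 fell each time. These are transcript levels, and the amount or ubiquitination of the proteins was not measured.

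**Figure D5:**
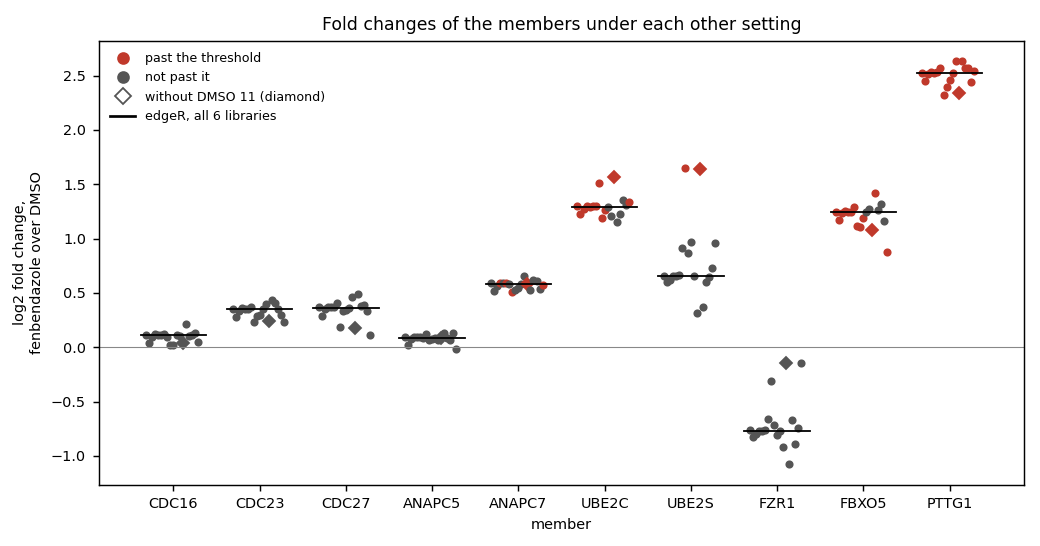
Log2 fold change of each member under each of 18 other settings (points; red where past the threshold of that setting, diamond: without DMSO 11; black line: edgeR with all 6 libraries). PTTG1 is red throughout, UBE2C (1.15 to 1.56) and FBXO5 (0.88 to 1.42) stay above 0 while the call varies, and UBE2S spreads from 0.32 to 1.65.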

How the data were processed

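Whole-number read counts per gene, which the authors did not normalise, and FPKM for the same libraries were deposited in 1 table with Ensembl identifiers and GRCh38 coordinates, per the file headers. CASAVA 1.8, HISAT2 2.1.0, StringTie 1.3.4b and edgeR are named in the submitters' processing notes. Which program counted reads, with which strand setting and which annotation, is not given in the sources used here. The test was that of edgeR 4.0.16 under R 4.3.3: TMM scaling, edgeR's own filter on low counts, robust quasi-likelihood F test, Benjamini-Hochberg adjustment over 17363 genes, checked on simulated data. SE and 95% intervals were derived from the F statistic. CPM are on the TMM scale. DESeq2 1.42.0, limma 3.58.1 (voom, and log2 FPKM plus 1 or 0.1), other scalings and filters, and leaving out each library were alternatives, and GC and length offsets (GENCODE release 29, 97.8% of tested genes) were added after seeing the data. The rule named all members, the other core subunits, CDC20, UBE2D1, 4 further regulators and 4 substrates with the smallest p, and the 3 genes most like UBE2C. KIF20A, RPL28, MFSD12, SKP2 and the markers were named outside it, after their values were seen. Members and lists were chosen with earlier results of these data known.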

Additional observations from a re-analysis of the deposited data

How the results depend on the processing

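No paired analysis was possible because DMSO libraries are numbered 10 to 12 and fenbendazole libraries 7 to 9. Among members, 3 passed with all libraries, all higher, where 3.11% of all genes rose and 0.921% fell. Quality weights gave 5 (all 5 higher), where 14.0% of all genes rose and 12.4% fell. An adjusted p of 0.01 gave 1 (higher), where 193 of 17363 genes rose and 17 fell. Leaving out 1 library gave 1 to 5, all higher. Over all genes, 139 of 18211 rose without fenbendazole 7 and 2313 of 17689 without DMSO 11. UBE2S and ANAPC7 were added without DMSO 11 and with quality weights. Over 18 other settings, 10 members gave 180 values, of which 161 kept direction and side of the threshold, 11 lost the call and 7 gained it. The 1 that changed sign was ANAPC5 with GC and length offsets (-0.018). Over all genes, 700 passed (540 higher, 160 lower). DESeq2 gave 1963 (1155 and 808), quality weights 4587 (2434 and 2153), GC and length offsets 3649 (2182 and 1467) and an adjusted p of 0.01 gave 210 (193 and 17). Upper-quartile scaling gave 455 higher and 231 lower. With each library left out in turn, 147 to 3946 genes passed (139 to 2313 of them higher, 8 to 1633 lower), the most without DMSO 11. Among other named genes, none of them past the threshold, the sign turned for ANAPC4 with limma-voom (0.042) and when DMSO 10 or DMSO 12 was left out (-0.29 to 0.18 over the 6 omissions), for ANAPC13 without DMSO 12 (-0.28 to 0.036), and for ANAPC11 with quality weights (0.15) and without DMSO 11 (-0.73 to 0.31). Fits that leave out 1 library have fewer libraries, and quality weights gave DMSO 11 a weight of 0.074. The cause of the differences between settings was not tested. With 3 libraries per group, the 95% intervals of CDC16, CDC23, CDC27 and ANAPC5 included 0 with all libraries, and that of ANAPC7 did not.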

Other observations

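Over the 6 libraries, the 3 genes outside the members whose log2 CPM was most like that of UBE2C were YWHAH, TNFAIP8L1 and MYC, with a Pearson r of 0.998, 0.998 and 0.996. The points share 2 groups and the same libraries, so this describes these 6 libraries only. Log2 fold changes were 1.04 for YWHAH (edgeR adjusted p = 0.0172), 1.53 for TNFAIP8L1 (0.0198) and 0.51 for MYC (0.0814). All 3 had DMSO 11 as their highest control, like UBE2C, which choosing them by likeness over the same libraries favours.

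For FZR1 the counts and the deposited FPKM did not move in parallel. CPM divided by FPKM ran from 3.59 in DMSO 10 to 5.44 in DMSO 11, a 1.52-fold range over libraries, whereas for each of the other 9 members that range was at most 1.15-fold.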
